A study of Rattus norvegicus with 16 samples.

Results

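Patellar tendon was set against the other 3 tendons of a rat series, namely Achilles, forepaw flexor and supraspinatus tendon. RNA was sequenced from 4 libraries of each tendon, so that 4 of 16 libraries were patellar. The animals were Sprague Dawley rats, an outbred laboratory strain, and the labels name no treatment, genotype, age or sex. The genes described first are those for which all 4 patellar libraries lay above, or all below, all 12 other libraries in CPM (counts per unit of library size, a gene's share of its library's reads after TMM scaling, which evens out differences in composition). They numbered 457 above and 347 below, 804 (4.74%) of 16948 genes with enough reads to test and of 23285 genes in the table. Library titles carry a number from 1 to 4 and nothing states that each number is its own animal, hence every p-value measures only how far these samples spread, which may be technical.

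The patellar tendon joins the kneecap to the tibia and transmits the pull of the thigh muscles. Tendon is mostly fibrillar collagen made by tendon fibroblasts, with vessels, nerves, fat, immune cells and, at its surface and ends, sheath, joint lining and fibrocartilage. Fibroblasts of different body regions are known to keep part of the homeobox gene pattern laid down in the embryo, in which HOX genes are read out along the body axis and the limb in the order of their positions in each cluster. In bulk RNA such as this, fewer cells of a type and less RNA per cell cannot be told apart. Each patellar sample also shares the anatomy of the knee, so a gene of a neighbouring tissue carried along in dissection cannot be told apart from a gene of the tendon itself.

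Patellar libraries were the least deep, at 63397591 to 74829951 counts, against 81788059 to 102491699 counts in the others. A gene with 3 counts had between 0.0266 and 0.0485 CPM depending on the library. Markers of tendon fibroblasts were present in every patellar library. Tnmd (ENSRNOG00000060970), a membrane protein of mature tendon cells, stood at 258 to 810.3 CPM there, against 195 to 1054 CPM in the 12 others. The tendon transcription factor gene Scx was at 15.6 to 67.7 CPM, against 5.67 to 86.4 CPM, and Mkx at 18.7 to 25 CPM, against 10.1 to 46.5 CPM. The main collagen gene Col1a1 was at 47090 to 101400 CPM in patellar and 17200 to 117300 CPM in the other libraries, and its call as higher was lost without patellar 2, 3 or 4. Patellar 1 stood apart from the other patellar libraries in muscle RNA: its 9 fast muscle markers summed to 21740 CPM of the library total, against 140.8 to 2979 CPM in patellar 2 to 4. Achilles 1 was the only library whose nearest library, over the 500 most variable genes, belonged to another tendon (patellar 3). Counts of separated genes are given with and without each of these libraries. Most single genes that rest on Achilles 1 are given with its level, and no fit of them without it is given.

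Fewer genes differed between patellar and Achilles tendon than between patellar and either forelimb tendon. Of the 16948 genes, 874 (5.16%) passed an adjusted p of 0.05 between patellar and Achilles tendon, 349 higher (2.06%) and 525 lower (3.1%) in patellar tendon. Between patellar and flexor tendon 8560 genes (50.5%) passed, and between patellar and supraspinatus tendon 9555 (56.4%). Against the mean of the log2 levels of the other 3 tendons, 7248 genes (42.8%) passed, 3668 higher (21.6%) and 3580 lower (21.1%) in patellar tendon. On library totals without TMM scaling the same comparison gave 5210 higher and 2299 lower genes, so that 69.4% of the calls were higher in place of 50.6%. That scaling moves the median of all genes by 0.16 on the log2 scale against the mean of the others and by 0.41 against supraspinatus tendon, and changes are given relative to the TMM scale. In a model that took the 12 other libraries as 1 group, 740 genes were higher and 831 lower.

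Genes called in each of the 3 pairs in the same direction numbered 198 higher (1.17%) and 245 lower (1.45%). The 3 pairs share the patellar libraries. The count for the Achilles pair, and with it the count over the 3 pairs, depended on single libraries. Without patellar 1 the Achilles pair gave 1415 genes and without Achilles 2 it gave 342. Without patellar 2, 3 and 4 it gave 403, 360 and 463 genes, and without Achilles 3 it gave 480. In all 3 pairs together 318 genes were higher and 394 lower without patellar 1, and 67 and 120 without Achilles 2. Without patellar 2, 3 or 4 or Achilles 3 the higher count was 86 to 110 and the lower count 116 to 159. By the authors' deposited table, patellar tendon had 232 genes higher and 241 lower in all 3 pairs at an adjusted p under 0.05. Of these, 129 and 168 were also called in all 3 pairs here. The authors' table held 12588 genes, against 16948 tested here, so the 2 sets of calls come from different sets of genes. The fold changes of the Achilles pair in the authors' deposited table matched a fit without Achilles 1 to within 0.0308 for every gene compared, whereas with all 16 libraries 63.3% of the genes were within 0.1.

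Separation of all 4 patellar libraries from all 12 others was found for 2.7% of genes upward and 2.05% downward. These shares stand as a description, since the same values chose the genes. Of them 456 of the 457 and all 347 passed the test against the mean of the others. The choice made that outcome nearly certain, so it is no support for the separation. The median log2 fold change was 1.05 among the genes above and -0.93 among those below, and 234 and 165 of them differed at least 2-fold. The nearest other library was most often an Achilles library, for 342 genes above and 247 below. The median distance to it was 0.128 on the log2 scale above and 0.129 below, and it was at least 1 for 17 genes above and 9 below. Just inside the rule lay Arpc5, an actin-nucleating subunit, at 222 to 228 CPM in patellar libraries with Achilles 1 at 222 CPM. Just outside it lay Il1r2 (ENSRNOG00000014378), a decoy receptor for interleukin-1, with patellar 1 and Achilles 1 both at 12.9 CPM and the other patellar libraries at 25.8 to 34.6 CPM. On the lower side Mical1, an oxidase of actin, was just inside with patellar 3 and supraspinatus 4 both at 57.4 CPM, and Cd14, described with the immune genes, just outside.

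The separation depended on 2 libraries and on the scaling. With patellar 2 to 4 alone, 875 genes (5.16%) lay above and 888 (5.24%) below the 12 others, of which 418 and 541 did not meet the rule with patellar 1 included. Without Achilles 1, 788 genes lay above and 518 below. On library totals 504 genes lay above (2.97%) and 171 below (1.01%), and 378 and 156 met the rule on both scales. A clone or numbered placeholder name stood in place of a gene symbol for 103 of the 457 genes above and 23 of the 347 below. The plot of fold change against level places the separated genes among all genes tested.

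**Figure D1:**
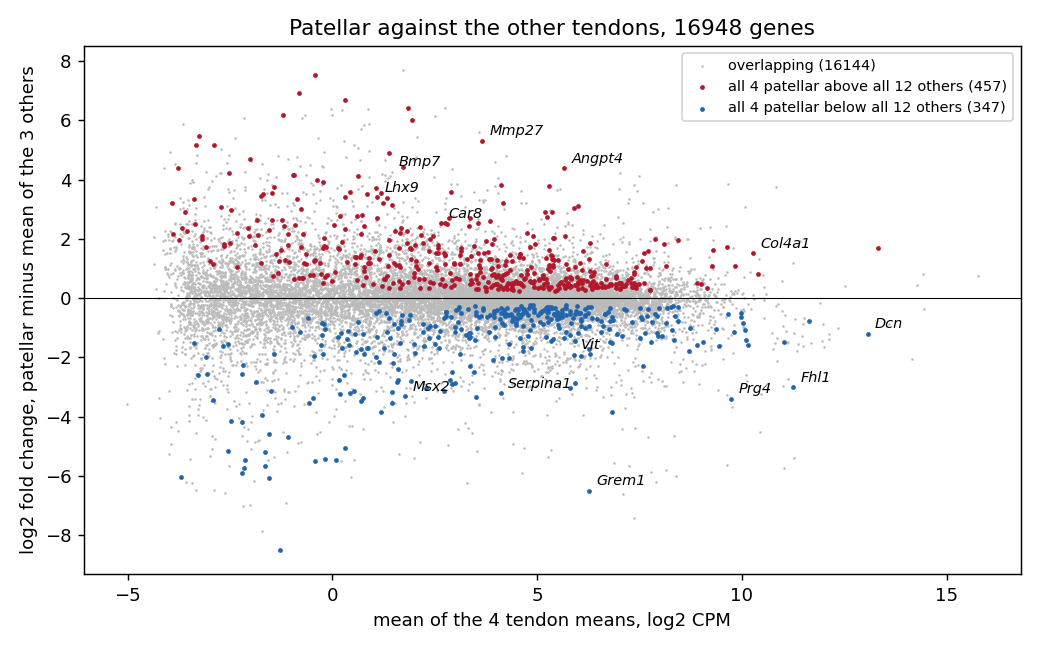
Log2 fold change of patellar tendon against the mean of the other 3 tendons (vertical axis) by the mean of the 4 tendon means in log2 CPM (horizontal axis), 1 point for each of 16948 genes. Red points are the 457 genes with all 4 patellar libraries above all 12 others, blue points the 347 genes below, grey points the rest; Bmp7 is named although its libraries overlap, and folds of genes near 0 counts in a tendon depend on the prior count.

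Of 4 genes chosen as marks of patellar tendon, Lhx9, Car8 and Angpt4 were separated from every other library and Bmp7 was not. Lhx9 (ENSRNOG00000010357), a LIM homeobox factor of limb outgrowth and gonad formation, stood at 5.91, 5.2, 6.53 and 5.98 CPM in the 4 patellar libraries, against 0.186, 0.0621, 0.0706 and 0.345 CPM in Achilles, 0.434, 0.454, 0.622 and 0.711 CPM in flexor and 2.39, 1.77, 2.05 and 1.36 CPM in supraspinatus libraries. The lowest patellar library had 2.18 times the level of the highest other library, a supraspinatus one (log2 fold change 3.40 ± 0.28, adjusted p = 1.24e-06). Car8 (ENSRNOG00000005669), a carbonic anhydrase relative without enzyme activity that binds the inositol trisphosphate receptor, stood at 11.5, 13.1, 18.7 and 21.7 CPM in the 4 patellar libraries, against 4.06, 3.65, 3.87 and 3.45 CPM in Achilles, 1.33, 2.55, 1.71 and 1.99 CPM in flexor and 3.36, 3.42, 2.99 and 2.8 CPM in supraspinatus libraries. Patellar 1 and 2 were the lower patellar libraries and still lay at 2.83 times the highest other library or more (log2 fold change 2.53 ± 0.15, adjusted p = 1.41e-07).

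Angpt4 (ENSRNOG00000005008), an angiopoietin that binds the endothelial receptor Tie2, stood at 108, 174, 182 and 119 CPM in the 4 patellar libraries, against 61.6, 55.9, 57.8 and 30.4 CPM in Achilles, 2.8, 3.67, 2.52 and 5.12 CPM in flexor and 2.19, 2.5, 1.48 and 1.49 CPM in supraspinatus libraries. Both forelimb tendons had a few CPM, and Achilles tendon lay between them and patellar tendon. The log2 fold change was 4.37 ± 0.20, adjusted p = 1.52e-08 against the mean of the others and 1.50 ± 0.27, adjusted p = 0.00789 against Achilles tendon; with the 12 others as 1 group it was 2.94 and did not pass. Bmp7 (ENSRNOG00000053384), a bone morphogenetic protein (BMP) ligand of kidney, eye and joint development, stood at 2.24, 4.5, 10.9 and 15.8 CPM in the 4 patellar libraries, against 0.514, 0.259, 0.131 and 0.178 CPM in Achilles, 2.62, 2.9, 0.691 and 2.48 CPM in flexor and 0.135, 0.166, 0.0419 and 0.21 CPM in supraspinatus libraries. Patellar 1 lay below flexor 1, 2 and 4, and the other 3 patellar libraries lay above all 12 others. The gene was called higher in each pair, with log2 fold changes of 4.93 ± 0.70, adjusted p = 0.00203 against Achilles, 1.94 ± 0.60, adjusted p = 0.0146 against flexor and 5.91 ± 0.75, adjusted p = 1.77e-05 against supraspinatus tendon.

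**Figure D2:**
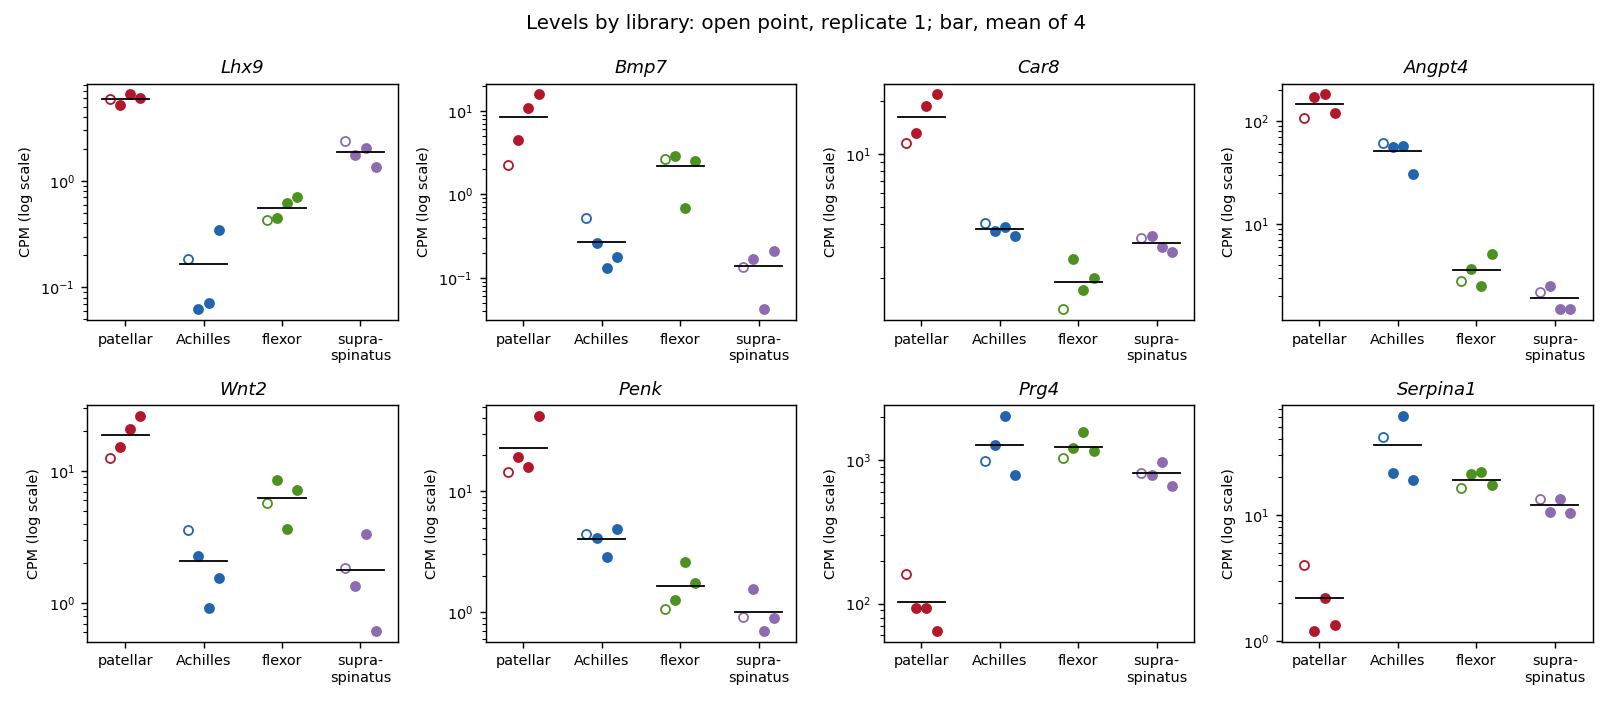
CPM of 8 genes on a log scale in each of 16 libraries, grouped by tendon; each point is a library, the open point is replicate 1 and the bar is the mean of 4. Patellar points lie above all others for Lhx9, Car8, Angpt4, Wnt2 and Penk and below all others for Prg4 and Serpina1, whereas Bmp7 in patellar 1, at 2.24 CPM, lies among the flexor libraries.

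Genes that pattern the limb and body axis were among those that set patellar tendon apart. Of 51 tested members of that list 18 were higher (35.3%) and 13 lower (25.5%) than the mean of the others, against 21.6 and 21.1% of all genes. The median log2 fold change was 0.08 beside -0.01 for all genes. Without TMM or without any 1 library the counts were 17 to 20 higher and 12 to 14 lower, whereas with the 12 others as 1 group they were 2 and 5. That last setting lowered the calls over all genes too. Lhx9, Hoxc6, Hoxc8 and Emx2 lay above all other libraries, and Msx2 and Six2 below. These are 7.84% of the list above and 3.92% below, against 2.7 and 2.05% of all genes, and Lhx9 had been chosen beforehand as a mark of patellar tendon. Emx2 (ENSRNOG00000009482), a homeobox factor of the forebrain, kidney and shoulder blade, stood at 4.85, 7.43, 9.17 and 11.1 CPM in the 4 patellar libraries, against 0.709, 0.921, 0.302 and 1.01 CPM in Achilles, 2.51, 1.58, 1.81 and 1.97 CPM in flexor and 2.97, 3.42, 3.52 and 3.15 CPM in supraspinatus libraries. Patellar 1 was the lowest patellar library and the supraspinatus libraries the nearest (log2 fold change 2.28 ± 0.23, adjusted p = 5.38e-06).

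Levels along the HOX C cluster differed between the tendons. Hoxc8 (ENSRNOG00000028619) stood at 9.9, 13.6, 12.9 and 13.8 CPM in the patellar libraries, against 2.71, 2.38, 2.49 and 3.07 CPM in Achilles and 0.417, 0.191, 0.307 and 0.0162 CPM in supraspinatus libraries, and at 0 to 2 counts per flexor library. Patellar libraries exceeded Achilles libraries without overlap (log2 fold change 2.23 ± 0.41, adjusted p = 0.0086). Hoxc6 (ENSRNOG00000016442) stood at 5.57, 5.94, 6.16 and 7.42 CPM in the 4 patellar libraries, against 0.965, 1.14, 1.21 and 1.35 CPM in Achilles, 0.0283, 0.101, 0.0973 and 0.113 CPM in flexor and 3.86, 3.76, 3.79 and 2.49 CPM in supraspinatus libraries. Every patellar library lay above every other one, with supraspinatus tendon next (log2 fold change 0.85 ± 0.24, adjusted p = 0.00857) and Achilles tendon well below it (log2 fold change 2.43 ± 0.26, adjusted p = 0.000208).

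Members on either side of these genes did not separate. Hoxc9 (ENSRNOG00000016199) stood at 2.57, 4.78, 4.43 and 4.81 CPM in patellar and 1.28, 1.7, 2.12 and 2.6 CPM in Achilles libraries, where patellar 1 fell just under Achilles 4, and patellar 2 to 4 lay above all 12 others, as did all 4 on library totals (log2 fold change against Achilles tendon 1.11 ± 0.35, adjusted p = 0.0817). Hoxc10 (ENSRNOG00000016149) stood at 16.7, 14.2, 13.9 and 14.9 CPM in patellar and 10.6, 14.4, 9.95 and 12.7 CPM in Achilles libraries, which overlapped (log2 fold change 0.33 ± 0.23, adjusted p = 0.415). Both genes had at most 2 counts in a flexor library. Hoxc11 (ENSRNOG00000016141) ran the other way within the hindlimb, at 0.426, 0.383, 0.317 and 0.242 CPM in patellar and 2.59, 2.57, 2.66 and 2.96 CPM in Achilles libraries, with no overlap (log2 fold change -2.97 ± 0.37, adjusted p = 0.000721). Its levels in the forelimb tendons were 0 or 1 count per library, so its fitted difference from the mean of the others, positive when each tendon weighs the same and -1.40 with the 12 others as 1 group, is not used here.

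The genes of lower number were not highest in patellar tendon alone. Hoxc4 stood at 2.09 to 3.97 CPM in patellar libraries, against 0.833 to 1.61 CPM in Achilles, 0.0583 to 0.111 CPM in flexor and 1.76 to 4.16 CPM in supraspinatus libraries, and patellar and supraspinatus tendon did not differ past the threshold (log2 fold change -0.24 ± 0.29, adjusted p = 0.498). Hoxc5 stood at 3.4 to 3.8 CPM in patellar libraries, against 1.36 to 2.4 CPM in Achilles, 0.151 to 0.302 CPM in flexor and 4.66 to 9.26 CPM in supraspinatus libraries, and supraspinatus libraries lay above all others. The log2 fold change of patellar tendon was -0.96 ± 0.24, adjusted p = 0.00394 against supraspinatus and 1.06 ± 0.24, adjusted p = 0.0246 against Achilles tendon. The genes of this cluster lie close together, and because the strand setting of the counts is not given in the sources used here, reads from overlapping or antisense transcripts cannot be told apart. With the 12 others as 1 group the adjusted p of each of the 7 HoxC genes was above 0.05, and with the adipocyte covariate that of Hoxc5 was.

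**Figure D3:**
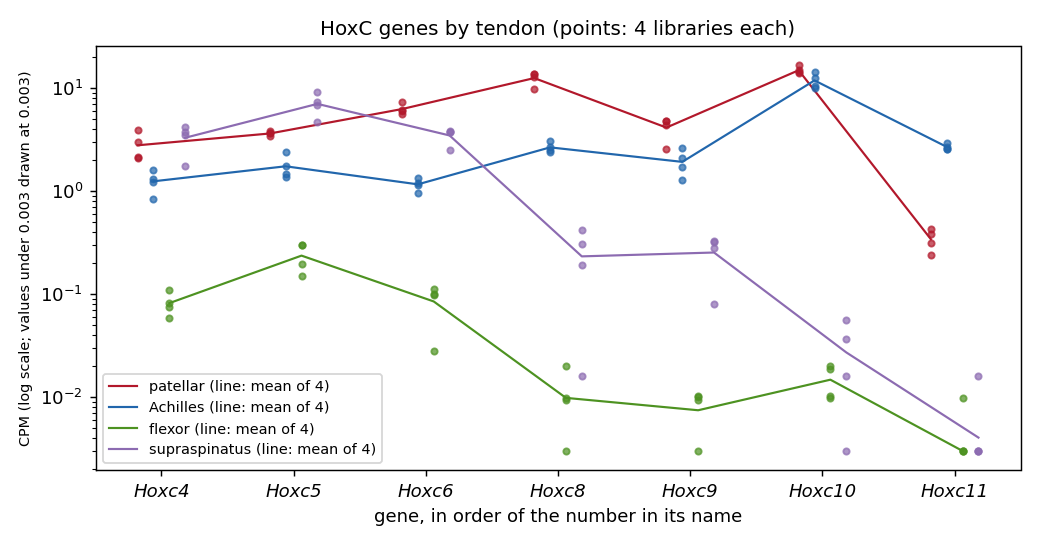
CPM of 7 HoxC genes on a log scale, with values under 0.003 drawn at 0.003; genes run along the horizontal axis in the order of the number in their names, points are libraries and lines join the mean of 4 libraries per tendon. Patellar libraries are the highest for Hoxc6 and Hoxc8, overlap Achilles libraries for Hoxc9 and Hoxc10 and lie below them for Hoxc11.

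2 homeobox genes were lower in patellar tendon than in any other library. Msx2 (ENSRNOG00000018355), a factor induced by BMP signals in bone and limb bud, stood at 0.341, 0.482, 0.0924 and 0.471 CPM in the 4 patellar libraries, against 4.38, 1.66, 1.86 and 2.89 CPM in Achilles, 13.8, 11.2, 2.62 and 8.39 CPM in flexor and 2.29, 2.33, 1.34 and 0.777 CPM in supraspinatus libraries. Flexor tendon had the most, and the lowest other library, supraspinatus 4, lay above all 4 patellar ones (log2 fold change -3.31 ± 0.54, adjusted p = 0.000252). Six2 (ENSRNOG00000058827), a factor of kidney progenitors and limb tendon, stood at 0.219, 0.0567, 0.066 and 0.203 CPM in the 4 patellar libraries, against 0.23, 0.745, 0.726 and 1.1 CPM in Achilles, 4.45, 6.46, 8.06 and 7.19 CPM in flexor and 2.35, 1.87, 1.52 and 1.28 CPM in supraspinatus libraries. Patellar 1, at 0.219 CPM, lay just under Achilles 1, at 0.23 CPM, while flexor tendon lay far above (log2 fold change against the mean of the others -3.85 ± 0.46, adjusted p = 2.23e-05). Neither gene passed with the adipocyte covariate.

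The BMP pathway was followed from ligands to targets. BMP ligands are secreted, bind type I and type II receptors and are held off by antagonists such as gremlin, and the cell answers with genes of the Id and Smad families. Of 16 tested BMP and GDF ligands 4 were higher (Bmp7, Gdf5, Gdf6 and Gdf15) and 5 lower (Bmp2, Bmp4, Bmp5, Bmp6 and Mstn) than the mean of the others. These are 25% higher and 31.2% lower, against 21.6 and 21.1% of all genes. Gdf5 (ENSRNOG00000050123), a ligand of joint and tendon formation, was at 6.52 to 14.7 CPM in patellar libraries, against 10.4 to 14.2 CPM in Achilles, 0.311 to 0.7 CPM in flexor and 0.744 to 1.89 CPM in supraspinatus libraries. Patellar and Achilles libraries overlapped and did not differ past the threshold (log2 fold change -0.41 ± 0.32, adjusted p = 0.485), and with the 12 others as 1 group its call was lost. Gdf6, at 0.134 to 1.44 CPM in patellar libraries, against 0.0403 to 0.445 CPM in the 12 others, and Gdf15, at 0.353 to 0.916 CPM in patellar libraries, against 0.14 to 0.534 CPM in the 12 others, overlapped the other libraries, and neither passed with the muscle covariate or with the 12 others as 1 group. Gdf6 also did not pass without patellar 3 and Gdf15 without patellar 4.

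Among 8 receptors 3 were higher and 3 lower (37.5% each way, against 21.6 and 21.1% of all genes), and 1, the type I receptor gene Bmpr1b, lay below all other libraries, as did 2.05% of all genes. Bmpr1b (ENSRNOG00000016289), a receptor of cartilage condensation, stood at 0.304, 0.964, 0.977 and 0.547 CPM in the 4 patellar libraries, against 1.02, 2.77, 1.93 and 4.56 CPM in Achilles, 5.09, 5.73, 6.92 and 4.73 CPM in flexor and 2.99, 2.5, 1.4 and 2.27 CPM in supraspinatus libraries. The highest patellar library lay just under Achilles 1, and the patellar level was lowest in patellar 1 (log2 fold change -2.20 ± 0.39, adjusted p = 0.000507). Among 16 antagonists and modulators 5 were higher and 6 lower (31.2% higher and 37.5% lower). Grem1 (ENSRNOG00000026053), the secreted antagonist gremlin 1, stood at 0.572, 0.383, 0.145 and 0.382 CPM in the 4 patellar libraries, against 1.55, 1.53, 0.877 and 3.08 CPM in Achilles, 195, 171, 263 and 161 CPM in flexor and 100.4, 135, 115 and 89.4 CPM in supraspinatus libraries. Both hindlimb tendons thus had little of it, patellar tendon the least, with a log2 fold change of -2.23 ± 0.39, adjusted p = 0.00604 against Achilles tendon.

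2 other extracellular modulators were high in patellar tendon. Tll1 (ENSRNOG00000033528), a tolloid-like protease that cuts the antagonist chordin, stood at 20.8, 19.1, 19.8 and 22.9 CPM in the 4 patellar libraries, against 14.9, 12.1, 12.1 and 14.2 CPM in Achilles, 10.7, 11.6, 6.5 and 12.3 CPM in flexor and 3.05, 4.34, 5.36 and 5.36 CPM in supraspinatus libraries. Achilles 1 was the highest other library, and the Achilles pair did not pass (log2 fold change 0.63 ± 0.20, adjusted p = 0.0776). Bmper (ENSRNOG00000015357), which binds BMPs outside the cell, stood at 22.2, 53.1, 65.6 and 52.7 CPM in the 4 patellar libraries, against 25.5, 25.6, 19.7 and 14.6 CPM in Achilles, 10.6, 13.8, 17.6 and 15.6 CPM in flexor and 2.33, 3.2, 3.99 and 2.33 CPM in supraspinatus libraries. Patellar 1 lay among the Achilles libraries and patellar 2 to 4 at 52.7 to 65.6 CPM, and all 3 pairs were called higher (log2 fold change against the mean of the others 2.32 ± 0.22, adjusted p = 3.07e-06). Of 9 listed target genes of the pathway 2 were higher and 2 lower, 22.2% each way and near the shares of all genes. Their median log2 fold change was -0.05, and none was separated. Msx2, which BMP signals also induce, was counted with the patterning genes and is not among the 9. It lay below all other libraries (log2 fold change -3.31 ± 0.54, adjusted p = 0.000252). With the adipocyte covariate Tll1, Bmpr1b and Gdf6 did not pass, and with the muscle covariate Bmpr1b did not.

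Wnt ligands are secreted lipid-modified proteins, and Notum removes that lipid. Of 27 tested Wnt ligands and secreted modulators 6 were higher and 11 lower in patellar tendon than the mean of the others, with a median log2 fold change of -0.25. The share higher, 22.2%, is near that of all genes (21.6%), and the share lower is 40.7%, against 21.1% of all genes. Wnt2 (ENSRNOG00000051905) stood at 12.7, 15.4, 20.8 and 26.1 CPM in the 4 patellar libraries, against 3.55, 2.29, 0.917 and 1.55 CPM in Achilles, 5.76, 8.6, 3.64 and 7.19 CPM in flexor and 1.84, 1.35, 3.32 and 0.615 CPM in supraspinatus libraries. Every patellar library lay above flexor 2, the highest other one (log2 fold change 2.71 ± 0.34, adjusted p = 3.19e-05). Wnt16 (ENSRNOG00000005781), known from cortical bone and the joint surface, stood at 0.365, 0.0567, 0.251 and 0.0763 CPM in the 4 patellar libraries, against 1.38, 1.38, 0.978 and 1.8 CPM in Achilles, 0.859, 1.31, 0.671 and 1.29 CPM in flexor and 2.43, 3.26, 1.66 and 5.21 CPM in supraspinatus libraries. All patellar libraries lay below flexor 3, the lowest other one (log2 fold change -3.12 ± 0.48, adjusted p = 0.000151). Notum was at 0 to 3 counts in a patellar library, against 6 to 38 counts in Achilles, 41 to 58 counts in flexor and 11 to 20 counts in supraspinatus libraries. The list counts were 2 higher and 6 lower with the muscle covariate and 2 and 3 with the adipocyte covariate, with which Wnt2 and Notum did not pass. Both covariates also lowered the calls over all genes.

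Other signalling genes were separated singly. Stra6 (ENSRNOG00000008312), the cell-surface receptor for retinol-binding protein, stood at 0.353, 0.113, 0.251 and 0.254 CPM in the 4 patellar libraries, against 1.68, 0.745, 0.837 and 0.812 CPM in Achilles, 3.53, 3.61, 5.33 and 5.55 CPM in flexor and 2.15, 2.15, 11.8 and 4.66 CPM in supraspinatus libraries. Patellar tendon was lowest and Achilles tendon next (log2 fold change against the mean of the others -3.55 ± 0.52, adjusted p = 0.000109), while of 16 tested retinoic acid genes 5 were higher and 4 lower (31.2% higher and 25% lower, against 21.6 and 21.1% of all genes). Boc (ENSRNOG00000002041), a co-receptor for hedgehog ligands, stood at 93.4 to 134 CPM in patellar libraries, against 199 to 258 CPM in Achilles, 339.6 to 572 CPM in flexor and 149 to 279 CPM in supraspinatus libraries. Its log2 fold change was -1.28 ± 0.17, adjusted p = 5.42e-05, and on library totals it overlapped. In the insulin-like growth factor (IGF) axis Pappa2 (ENSRNOG00000042860), a protease that frees IGF from binding proteins, was above all others, and Igfbp6, a binding protein that prefers IGF2, below. Pappa2 stood at 17.1, 17.1, 18.3 and 30.1 CPM in the 4 patellar libraries, against 11.3, 12.5, 10.6 and 9.44 CPM in Achilles, 0.66, 0.786, 0.554 and 0.546 CPM in flexor and 10.4, 9.41, 7.06 and 5.44 CPM in supraspinatus libraries. Patellar 4 stood far above the other patellar libraries, and flexor tendon lay below 1 CPM (log2 fold change 2.43 ± 0.17, adjusted p = 3.3e-07).

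Igfbp6 (ENSRNOG00000010977) stood at 357, 511, 487 and 587 CPM in the 4 patellar libraries, against 1217, 1231, 949.6 and 1005 CPM in Achilles, 1308, 1676, 1561 and 1528 CPM in flexor and 1587, 1554, 1332 and 765 CPM in supraspinatus libraries. The lowest other library was supraspinatus 4, and on library totals the groups overlapped (log2 fold change -1.42 ± 0.19, adjusted p = 4.68e-05). Of 14 tested genes of the IGF axis 6 were higher and 3 lower (42.9% higher and 21.4% lower, against 21.6 and 21.1% of all genes). Of 19 genes of the vascular growth factor families 10 were higher and 2 lower (52.6% higher and 10.5% lower), with a median of 0.63. Angpt4 and Flt1 (ENSRNOG00000000940), a receptor of vascular endothelial growth factor, lay above all other libraries. These are 10.5% of the list, against 2.7% of all genes, and Angpt4 had been chosen beforehand as a mark of patellar tendon. With the adipocyte covariate Boc, Igfbp6 and Flt1 did not pass, and with the 12 others as 1 group Pappa2 did not.

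Vessel genes were higher in patellar tendon than the mean of the others. Of 13 tested endothelial markers 12 were called so (92.3%, against 21.6% of all genes), with a median log2 fold change of 1.06, and 0 were called higher in all 3 pairs (1.17% of all genes). Erg (ENSRNOG00000001652), a transcription factor of endothelial cells, stood at 72.8, 64.3, 55.6 and 64.9 CPM in the 4 patellar libraries, against 47.1, 40.8, 45.1 and 44.4 CPM in Achilles, 12, 14.3, 14.8 and 12.2 CPM in flexor and 19.8, 21.5, 33.4 and 35.8 CPM in supraspinatus libraries. Achilles tendon was next and flexor tendon lowest, and the Achilles pair did not pass (log2 fold change 0.54 ± 0.17, adjusted p = 0.0761). Ptprb, an endothelial phosphatase, was at 301 to 352 CPM in patellar libraries, against 83.4 to 227 CPM in the 12 others, and Flt1 at 87.4 to 108 CPM in patellar libraries, against 29.6 to 73.1 CPM in the 12 others. Both were separated, and neither passed in the Achilles pair (adjusted p = 0.078 for Ptprb and 0.0851 for Flt1).

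The basement membrane collagens followed. Col4a1 (ENSRNOG00000016281) stood at 1862, 2588, 2632 and 2210 CPM in the 4 patellar libraries, against 1190, 1425, 1567 and 1094 CPM in Achilles, 592, 668, 435 and 548 CPM in flexor and 649, 838, 789 and 643 CPM in supraspinatus libraries. It was called higher in every pair, with a log2 fold change of 0.82 ± 0.17, adjusted p = 0.0151 against Achilles tendon. Col4a2 (ENSRNOG00000023972), its partner chain, was at 922 to 1055 CPM in patellar libraries, against 290.4 to 819 CPM in the 12 others and did not pass in the Achilles pair (adjusted p = 0.107). The 13 endothelial markers summed to 2951 to 3920 CPM of the library total in patellar libraries, against 2282 to 2833 CPM in Achilles, 654.7 to 1323 CPM in flexor and 722.8 to 1388 CPM in supraspinatus libraries. Of 13 pericyte and smooth muscle markers 5 were higher and 1 lower (38.5% higher and 7.69% lower, against 21.6 and 21.1% of all genes). They summed to 1626 to 2921 CPM in patellar and 1120 to 3658 CPM in the other libraries. The endothelial count was 11 without patellar 1, 3 with the adipocyte covariate and 3 with the 12 others as 1 group. The adipocyte covariate largely divides hindlimb from forelimb libraries. Its markers summed to 6316 to 18730 CPM of the library total in patellar, 4767 to 18410 CPM in Achilles and 832.4 to 2616 CPM in the forelimb libraries. The part of fat in these differences was thus not tested.

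Mast cell and granulocyte genes were higher in patellar tendon than the mean of the others. All 14 tested members passed in that direction, against 21.6% of all genes, with a median log2 fold change of 3.06. Of them 5 lay above all other libraries (35.7%, against 2.7% of all genes), and 2 were called higher in all 3 pairs, beside 1.17% of all genes. Cma1 (ENSRNOG00000020563), mast cell chymase, stood at 51.7, 108, 146 and 116 CPM in the 4 patellar libraries, against 47.8, 25.3, 27.7 and 27.8 CPM in Achilles, 23.3, 26.3, 12.8 and 31.8 CPM in flexor and 4.56, 4.43, 1.93 and 3.56 CPM in supraspinatus libraries. Cpa3 (ENSRNOG00000011181), mast cell carboxypeptidase, stood at 56.6, 93.7, 117 and 101 CPM in the 4 patellar libraries, against 50.8, 20.3, 21.1 and 22 CPM in Achilles, 20.5, 19.9, 12 and 33.2 CPM in flexor and 2.97, 3.97, 2.08 and 3.2 CPM in supraspinatus libraries. In both genes patellar 1 lay close above Achilles 1, and Achilles 1 stood at nearly the patellar level while Achilles 2 to 4 did not. The log2 fold changes against Achilles tendon were 1.71 ± 0.35, adjusted p = 0.0148 for Cma1 and 1.69 ± 0.35, adjusted p = 0.0159 for Cpa3. Fcer1a (ENSRNOG00000009177), the binding chain of the IgE receptor, was at 4.35 to 8.17 CPM in patellar libraries, against 0.957 to 4.27 CPM in Achilles, 0.515 to 2.05 CPM in flexor and 0.014 to 0.196 CPM in supraspinatus libraries. It was separated, with Achilles 1 the nearest library, but did not pass in the Achilles pair (adjusted p = 0.079).

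2 granulocyte members separated as well. S100a9 (ENSRNOG00000011483), a calcium-binding protein of neutrophils and monocytes, stood at 4.77, 7.18, 6.51 and 5.18 CPM in the 4 patellar libraries, against 4.48, 1.74, 3.34 and 2.35 CPM in Achilles, 0.472, 0.242, 0.146 and 0.216 CPM in flexor and 0.368, 0.356, 0.112 and 0.453 CPM in supraspinatus libraries. Patellar 1 lay close above Achilles 1, and the Achilles pair did not pass (log2 fold change 0.99 ± 0.39, adjusted p = 0.149). S100a8, its partner, was at 1.72 to 2.68 CPM in patellar libraries, against 0 to 1.63 CPM in the 12 others and did not pass in the Achilles pair either (adjusted p = 0.233). On library totals S100a8 overlapped. The 15 markers of this list summed to 240.6 to 453.7 CPM of the library total in patellar libraries, against 100.7 to 218.7 CPM in Achilles, 66.3 to 142.7 CPM in flexor and 16.3 to 21.9 CPM in supraspinatus libraries. Elane, Mcpt1, Mmp8 and Prtn3 were at 0 in every supraspinatus library. The count of 14 was 13 or 14 without any 1 library, 9 with the muscle covariate, 5 with the adipocyte covariate and 4 with the 12 others as 1 group. Calls over all genes fell as well under the last 3 settings. The lower counts alone thus do not show a loss particular to this list.

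Other immune genes divided. Of 14 tested macrophage and monocyte markers 3 were higher and 3 lower (21.4% each way, near the 21.6 and 21.1% of all genes), with a median of 0.35. Adgre1, the F4/80 antigen of rodent macrophages, was at 22.9 to 40.3 CPM in patellar libraries, against 3.14 to 22.1 CPM in the 12 others. Ly86, a partner of a Toll-like receptor homologue, was at 7.92 to 14.9 CPM in patellar libraries, against 1.41 to 7.33 CPM in the 12 others. Both were separated from all other libraries, and neither passed in the Achilles pair (adjusted p = 0.0919 for Adgre1 and 0.0614 for Ly86). Cd14 (ENSRNOG00000017819), the co-receptor for bacterial lipopolysaccharide, ran the other way at 62.2 to 88.1 CPM in patellar libraries, against 88 to 264 CPM in the 12 others, where Achilles 4 lay just under the highest patellar library. It was lower in all 3 pairs, with a log2 fold change of -1.07 ± 0.14, adjusted p = 3.59e-05 against the mean of the others. Clec4d (ENSRNOG00000010181), a C-type lectin of myeloid cells, was below all others, at 1.33 to 1.84 CPM in patellar libraries, against 3.35 to 24 CPM in the 12 others (log2 fold change -2.49 ± 0.34, adjusted p = 6.11e-05).

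3 myeloid-type genes with wider gaps lay above. Mnda (ENSRNOG00000003486), of the interferon-inducible p200 family of myeloid nuclei, stood at 76.8, 128, 148 and 137 CPM in the 4 patellar libraries, against 30.4, 20.9, 16.3 and 14.2 CPM in Achilles, 9.06, 9.46, 4.92 and 8.02 CPM in flexor and 4, 5.93, 5.05 and 2.09 CPM in supraspinatus libraries. Patellar 1 was the lowest patellar library at 2.52 times Achilles 1, the highest other one (log2 fold change 3.79 ± 0.23, adjusted p = 1.53e-07). Cd209f (ENSRNOG00000042317), a lectin of the DC-SIGN family, stood at 7.91 to 17.1 CPM in patellar and 0.701 to 3.81 CPM in Achilles libraries, with at most 17 counts in a forelimb library. Retnlg (ENSRNOG00000001943), a resistin-like peptide of rodent granulocytes, stood at 1.52 to 7.34 CPM in patellar and 0.29 to 0.665 CPM in Achilles libraries, with at most 3 counts in a forelimb library. Against Achilles tendon the log2 fold changes were 2.78 ± 0.54, adjusted p = 0.0118 for Cd209f and 3.23 ± 0.57, adjusted p = 0.00735 for Retnlg. Reads of these family members may be shared with similar genes.

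Among lymphocyte markers 8 of 11 were higher (72.7%, against 21.6% of all genes), with a median of 1.53, and their sums overlapped, at 44.7 to 70.5 CPM of the library total in patellar, 33.9 to 69.5 CPM in Achilles, 29.3 to 59.9 CPM in flexor and 17.4 to 44.2 CPM in supraspinatus libraries. Ms4a1, the B cell antigen CD20, was separated but did not pass in the Achilles pair (adjusted p = 0.187). It was at 0.255, 0.34, 0.29 and 1.17 CPM in patellar libraries, against 0.23, 0.103, 0.0907 and 0.234 CPM in Achilles libraries and at most 3 counts in a forelimb library, where patellar 4 stood far above the other patellar libraries and patellar 1 just above Achilles 4. Erythroid markers were higher in 5 of 6 (83.3%), and Ahsp (ENSRNOG00000020165), which stabilises alpha globin in red cell precursors, was at 1.49 to 2.23 CPM in patellar libraries, against 0.932 to 1.32 CPM in Achilles, 0.396 to 0.762 CPM in flexor and 0.0613 to 0.293 CPM in supraspinatus libraries. Ahsp did not pass in the Achilles pair (adjusted p = 0.233). Erythroid markers summed to 330.9 to 564.1 CPM of the library total in patellar and 272.0 to 365.3 CPM in Achilles libraries, against 20.4 to 108.8 CPM in the forelimb libraries. The part of blood in the immune differences was not tested. With the adipocyte covariate, which also lowered the calls over all genes, 2 lymphocyte markers passed, and without patellar 4 there were 5. Fcer1a, S100a8, S100a9, Ms4a1 and Ahsp did not pass with the 12 others as 1 group, and Fcer1a, S100a8 and Ahsp did not with the adipocyte covariate.

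2 inflammatory genes separated at TMM scale once patellar 1 was left out, and with all 4 patellar libraries on library totals. Il1r2 stood at 12.9, 25.8, 34.6 and 26.1 CPM in the 4 patellar libraries, against 12.9, 8.32, 4.58 and 4.85 CPM in Achilles, 2.25, 2.39, 2.17 and 1.96 CPM in flexor and 1.05, 0.955, 0.335 and 0.469 CPM in supraspinatus libraries. Patellar 1 and Achilles 1 met, and patellar 2 to 4 lay above all others (log2 fold change 3.44 ± 0.28, adjusted p = 1.28e-06). Ccl20 (ENSRNOG00000015992), a chemokine for dendritic cells and lymphocytes, stood at 0.328, 1.48, 2.14 and 1.17 CPM in the 4 patellar libraries, against 0.062, 0.145, 0.151 and 0.1 CPM in Achilles, 0.00944, 0.0302, 0.0681 and 0.0206 CPM in flexor and 0.0368, 0.0255, 0.335 and 0.0485 CPM in supraspinatus libraries. Supraspinatus 3 had about the level of patellar 1, and patellar 2 to 4 lay above all others (log2 fold change 4.08 ± 0.53, adjusted p = 4.09e-05). Ccl20 did not pass with either covariate. Ace (ENSRNOG00000062101), the enzyme that makes angiotensin II, likewise had patellar 1 at 111 CPM, within the range of Achilles and flexor libraries, and patellar 2 to 4 at 253 to 385 CPM, against 28.3 to 126 CPM in the 12 others.

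**Figure D4:**
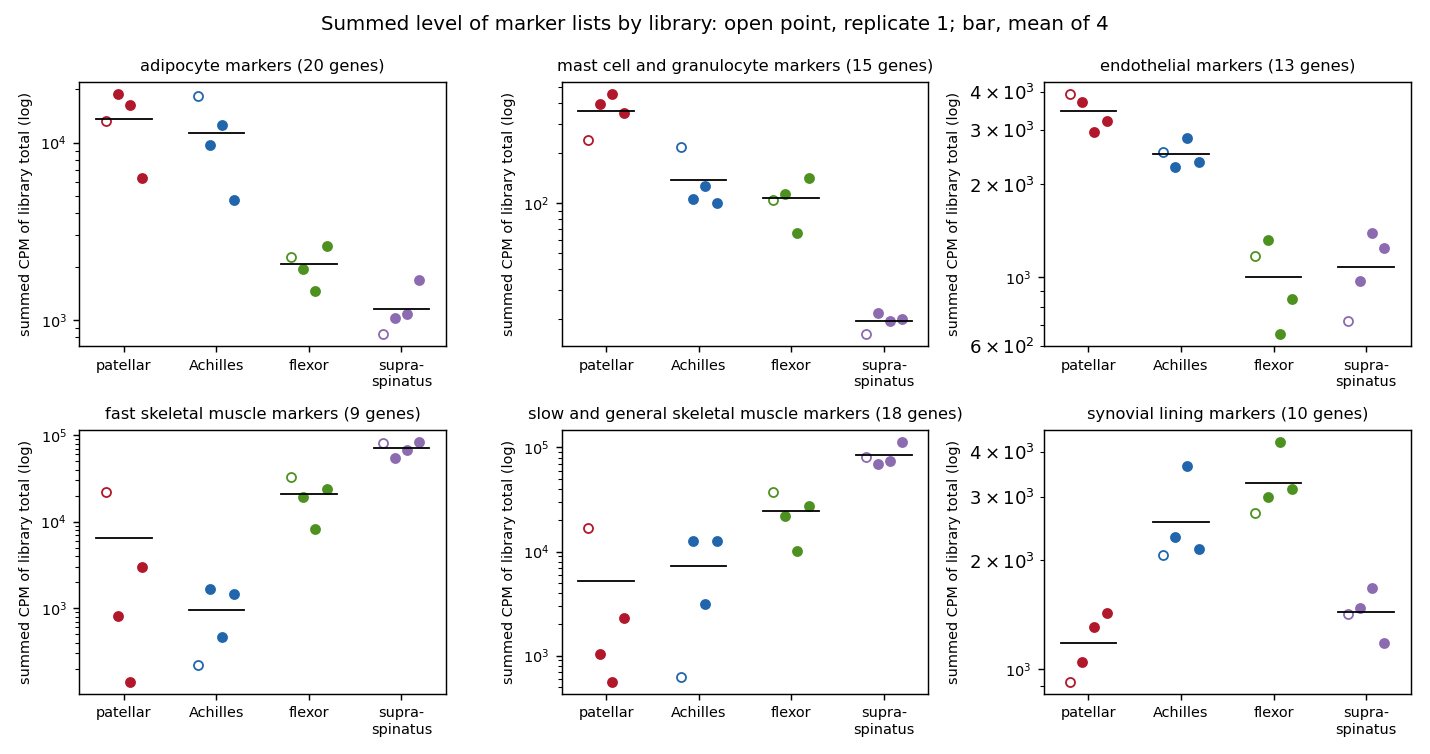
Summed CPM of the library total for 6 marker lists in each of 16 libraries, log scale, grouped by tendon; points are libraries, the open point is replicate 1 and the bar is the mean of 4. Mast cell and granulocyte markers and endothelial markers are highest in patellar libraries, adipocyte markers overlap between patellar and Achilles libraries, and patellar 1 holds more muscle RNA than patellar 2 to 4.

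Fat and cell cycle genes were called against the mean of the others without separating patellar from Achilles libraries. Of 18 tested adipocyte markers 15 were higher than the mean of the others and 1 lower (83.3% higher and 5.56% lower, against 21.6 and 21.1% of all genes). None was separated from all other libraries, against 4.74% of all genes, which says little in a list of 18. The markers summed to 6316 to 18730 CPM of the library total in patellar and 4767 to 18410 CPM in Achilles libraries, against 832.4 to 2616 CPM in the forelimb libraries. Ucp1, the defining gene of brown fat, was at 0 in every patellar library and likewise in every supraspinatus library. Of 19 cell cycle genes 17 were higher (89.5%, against 21.6% of all genes). None was separated, which likewise says little in a list of 19. The median log2 fold change was 1.22 against the mean of the others and -0.33 against Achilles tendon.

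Genes above all other libraries also included a neuropeptide precursor, enzymes and surface proteins. Penk (ENSRNOG00000008943), the precursor of the enkephalin opioid peptides, stood at 14.5, 19.1, 15.8 and 41.8 CPM in the 4 patellar libraries, against 4.41, 4.08, 2.88 and 4.84 CPM in Achilles, 1.06, 1.25, 2.58 and 1.74 CPM in flexor and 0.907, 1.54, 0.698 and 0.89 CPM in supraspinatus libraries. Patellar 4 was the highest, and the lowest patellar library lay at 3 times the highest other one (log2 fold change 3.59 ± 0.27, adjusted p = 6.89e-07). Akr1c3 (ENSRNOG00000017531), an aldo-keto reductase of steroid metabolism, stood at 2.24, 1.97, 2.12 and 2.15 CPM, or 139 to 184 counts, in patellar libraries, against 0 to 9 counts in Achilles, 4 to 13 in flexor and 0 in supraspinatus libraries. The patellar libraries were close together and no other library came near them, although close copies of this family may share reads.

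Tbata (ENSRNOG00000000564), a gene named for its expression in thymus, brain and testis, stood at 8.99, 9.47, 10.7 and 7.38 CPM in the 4 patellar libraries, against 2.01, 0.818, 0.685 and 0.434 CPM in Achilles, 0.245, 0.252, 0.204 and 0.206 CPM in flexor and 0.208, 0.166, 0.112 and 0 CPM in supraspinatus libraries. Its patellar libraries lay at 3.67 times the highest other library, Achilles 1, or more. The log2 fold change against Achilles tendon was 3.21 ± 0.52, adjusted p = 0.00428. Mmp27 (ENSRNOG00000040208), a matrix metalloproteinase, stood at 22.8, 34.5, 47.7 and 56.9 CPM in patellar libraries, against 10.7, 4.55, 3.22 and 3.18 CPM in Achilles and 5.4, 6.69, 1.08 and 5.33 CPM in flexor libraries and at most 6 counts in a supraspinatus library. Supraspinatus tendon thus hardly held it, and patellar tendon exceeded Achilles tendon (log2 fold change 2.90 ± 0.54, adjusted p = 0.00913). Adamts12 (ENSRNOG00000018865), a protease of cartilage oligomeric matrix protein, was at 123 to 149 CPM in patellar libraries, against 72.6 to 103 CPM in Achilles, 28.2 to 42.1 CPM in flexor and 36.3 to 56.5 CPM in supraspinatus libraries. It was separated but did not pass in the Achilles pair (adjusted p = 0.0556), and of 25 tested matrix proteases and inhibitors 11 were higher and 3 lower (44% higher and 12% lower, against 21.6 and 21.1% of all genes).

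Itm2a (ENSRNOG00000002365), a membrane protein of cartilage and muscle differentiation, stood at 609, 704, 758 and 958 CPM in the 4 patellar libraries, against 307, 225, 167 and 291 CPM in Achilles, 126, 97.9, 99 and 122 CPM in flexor and 228, 230.1, 318 and 291 CPM in supraspinatus libraries. The flexor libraries were lowest, and patellar tendon was higher in every pair (log2 fold change 1.96 ± 0.15, adjusted p = 7.23e-07). Among the most abundant genes above all others, Tmsb4x (ENSRNOG00000047931), the actin-binding thymosin beta 4, was at 1870 to 2147 CPM in patellar libraries, against 861 to 1538 CPM in the 12 others. B2m (ENSRNOG00000017123), the light chain of class I histocompatibility molecules, was at 1383 to 1557 CPM in patellar libraries, against 417 to 1283 CPM in the 12 others. Their log2 fold changes were 0.83 ± 0.11, adjusted p = 5.06e-05 for Tmsb4x and 1.09 ± 0.11, adjusted p = 7.13e-06 for B2m, and B2m did not pass in the Achilles pair (adjusted p = 0.0566).

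Below all other libraries stood the lubricant of gliding surfaces. Prg4 (ENSRNOG00000002385), lubricin, which coats joints and tendon sheaths, stood at 162, 93.1, 93.1 and 64.5 CPM in the 4 patellar libraries, against 995, 1278, 2032 and 795 CPM in Achilles, 1041, 1219, 1571 and 1154 CPM in flexor and 810.5, 794, 973 and 658 CPM in supraspinatus libraries. The highest patellar library was patellar 1, and the lowest other library lay at 4.06 times its level. The log2 fold change was -3.40 ± 0.30, adjusted p = 1.93e-06 against the mean of the others, and the gene was lower in each pair, with log2 fold changes of -3.63 ± 0.33 against Achilles, -3.59 ± 0.33 against flexor and -2.97 ± 0.32 against supraspinatus tendon. Of 10 tested synovial lining markers 2 were higher and 5 lower (20% higher and 50% lower, against 21.6 and 21.1% of all genes), with a median of -0.52. The list, with Prg4 in it, summed to 923.8 to 1435 CPM of the library total in patellar libraries. Its sums were 2074 to 3651 CPM in Achilles, 2708 to 4250 CPM in flexor and 1183 to 1682 CPM in supraspinatus libraries. Prg4 alone stood at 64.5 to 162 CPM in patellar and 795 to 2032 CPM in Achilles libraries at TMM scale. The sums thus cannot be read as joint lining apart from Prg4, and no sum without it is given. How much joint lining each dissection carried was not tested.

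Serpina1 (ENSRNOG00000032669), the protease inhibitor alpha-1-antitrypsin, stood at 4.01, 1.21, 2.22 and 1.35 CPM in the 4 patellar libraries, against 42.1, 21.7, 61.2 and 19.2 CPM in Achilles, 16.4, 21.3, 21.9 and 17.3 CPM in flexor and 13.5, 10.7, 13.3 and 10.5 CPM in supraspinatus libraries. Achilles tendon had the most and patellar tendon the least (log2 fold change -3.20 ± 0.38, adjusted p = 2.04e-05). Vit (ENSRNOG00000004706), the matrix protein vitrin, stood at 15.2, 23, 18.5 and 18 CPM in the 4 patellar libraries, against 88.7, 102, 128 and 73.4 CPM in Achilles, 48.8, 56, 98.1 and 77.4 CPM in flexor and 53.8, 64.8, 45.1 and 39.9 CPM in supraspinatus libraries. All patellar libraries lay under supraspinatus 4, the lowest other one (log2 fold change -1.91 ± 0.21, adjusted p = 1.1e-05). Further separated genes were Upk1b, a uroplakin, at 0.304 to 0.865 CPM in patellar libraries, against 2.07 to 12.8 CPM in the 12 others, Prrt2, a synaptic membrane protein, at 1.79 to 3.26 CPM in patellar libraries, against 8.49 to 24.1 CPM in the 12 others, and Tmem196, at 0.119 to 1.41 CPM in patellar libraries, against 2.39 to 20.5 CPM in the 12 others. Each of the 3 was lower in every pair, with log2 fold changes against the mean of the others of -2.81 ± 0.31 for Upk1b, -2.50 ± 0.25 for Prrt2 and -3.04 ± 0.56 for Tmem196.

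Single matrix genes of tendon and cartilage were lower, while the shares of their lists called lower were near that of all genes. Dcn (ENSRNOG00000004554), the proteoglycan decorin that spaces collagen fibrils, stood at 2211, 4204, 4915 and 5369 CPM in the 4 patellar libraries, against 6149, 7874, 7230 and 10930 CPM in Achilles, 11630, 12980, 19290 and 15460 CPM in flexor and 8525, 7759, 7583 and 6013 CPM in supraspinatus libraries. Patellar 1 was lowest, and all 4 lay under supraspinatus 4 at TMM scale but overlapped on library totals (log2 fold change -1.21 ± 0.23, adjusted p = 0.000939). The Achilles pair did not pass (adjusted p = 0.0556). Thbs4 (ENSRNOG00000012471), thrombospondin 4 of tendon matrix, was at 318 to 832 CPM in patellar libraries, against 713 to 2263 CPM in Achilles, 1354 to 2322 CPM in flexor and 1961 to 3433 CPM in supraspinatus libraries. It was lower in each pair while overlapping in single libraries (log2 fold change -1.70 ± 0.32, adjusted p = 0.000664). Fmod (ENSRNOG00000003183), fibromodulin, was at 2597 to 3507 CPM in patellar libraries, against 2457 to 7217 CPM in Achilles, 4256 to 7602 CPM in flexor and 5429 to 8808 CPM in supraspinatus libraries. It was lower than the mean of the others (log2 fold change -0.99 ± 0.26, adjusted p = 0.0066), and with the adipocyte covariate its log2 fold change was 0.36 and did not pass. Of 23 tendon fibroblast genes 3 were higher and 5 lower (13% higher and 21.7% lower, against 21.6 and 21.1% of all genes), and their summed level was 89240 to 171900 CPM of the library total in patellar, 118700 to 177500 CPM in Achilles and 41990 to 93080 CPM in the forelimb libraries.

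Sox5 (ENSRNOG00000027869), a cofactor of Sox9 in cartilage, stood at 13.3, 5.9, 6.41 and 7.06 CPM in the 4 patellar libraries, against 28.8, 21.5, 30.1 and 16.5 CPM in Achilles, 34.5, 33.8, 78.1 and 50.5 CPM in flexor and 18.6, 20.8, 18.3 and 16.8 CPM in supraspinatus libraries. It was separated at TMM scale and overlapped on library totals, with patellar 1 the highest patellar library (log2 fold change -1.78 ± 0.27, adjusted p = 0.000147). Of 18 tested fibrocartilage and chondrocyte markers 2 were higher and 4 lower (11.1% higher and 22.2% lower, against 21.6 and 21.1% of all genes). Their median log2 fold change was -1.04. Their summed level was 1870 to 4641 CPM of the library total in patellar libraries, against 4228 to 10300 CPM in the others, and Matn1 was at 0 in every patellar library.

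4 abundant genes for secreted or surface proteins lay below as well. Cst3, the protease inhibitor cystatin C, was at 1897 to 2147 CPM in patellar libraries, against 2453 to 6540 CPM in the 12 others. Mfge8, lactadherin, which bridges dying cells to phagocytes, was at 688 to 1059 CPM in patellar libraries, against 1214 to 3642 CPM in the 12 others. Cd9 (ENSRNOG00000019556), a tetraspanin, was at 439, 363, 433 and 464 CPM in the 4 patellar libraries, against 861, 625, 740.5 and 763 CPM in Achilles, 1852, 1794, 2478 and 1894 CPM in flexor and 1541, 1393, 1466 and 999 CPM in supraspinatus libraries, and Pmp22, a protein of peripheral myelin, at 476, 436, 438 and 425 CPM in the 4 patellar libraries, against 2635, 708, 636 and 617 CPM in Achilles, 1466, 1358, 1214 and 1615 CPM in flexor and 588, 585, 652 and 544 CPM in supraspinatus libraries. Achilles 1 stood far above the other Achilles libraries in Pmp22, and the supraspinatus pair did not pass (adjusted p = 0.353). The log2 fold changes were -0.78 ± 0.17, adjusted p = 0.00217 for Cst3, -1.47 ± 0.18, adjusted p = 3.31e-05 for Mfge8 and -1.57 ± 0.14, adjusted p = 2.36e-06 for Cd9. Cst3 did not pass in the Achilles pair (adjusted p = 0.0668) or the supraspinatus pair (adjusted p = 0.0606), and Cst3 and Pmp22 overlapped on library totals. With the adipocyte covariate Dcn, Cst3, Mfge8, Sox5, Thbs4 and Tmem196 did not pass, nor did Col4a2, Ptprb or Tmsb4x among the genes above. That covariate largely divides hindlimb from forelimb libraries, and what the lost calls rest on was not tested. Cst3 and Pmp22 did not pass with the 12 others as 1 group.

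Slow muscle genes were lower in patellar tendon. Of 17 tested slow and general muscle markers 12 were lower (70.6%, against 21.1% of all genes), and 17 were without patellar 1. With the muscle covariate 1 was lower. That covariate is the mean log2 level of the fast, slow and general muscle markers themselves. It takes up their own differences, so this count is no check on them. Of 9 fast muscle markers 0 passed by edgeR, with 0 at an unadjusted p under 0.05, 0 passed by DESeq2 and 6 were lower by limma-voom. Without patellar 1, 6 were lower by edgeR. Fhl1 (ENSRNOG00000000875), a LIM-domain protein of muscle, stood at 379, 230, 285 and 222 CPM in the 4 patellar libraries, against 445, 846, 462 and 778 CPM in Achilles, 4049, 2888, 2038 and 3655 CPM in flexor and 5055, 4952, 4203 and 8399 CPM in supraspinatus libraries. Myom3 (ENSRNOG00000032994), a myomesin of the sarcomere's M band, stood at 6.79, 8.64, 8.51 and 9.25 CPM in the 4 patellar libraries, against 18.1, 72, 29.7 and 47.7 CPM in Achilles, 319, 198, 111 and 240.1 CPM in flexor and 138, 225, 105 and 288 CPM in supraspinatus libraries. Both were below all other libraries, with log2 fold changes of -3.01 ± 0.29, adjusted p = 4.09e-06 for Fhl1 and -3.85 ± 0.42, adjusted p = 1.13e-05 for Myom3. Patellar 1, which held the most muscle RNA among patellar libraries, was the highest of them in Fhl1 and the lowest in Myom3.

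Tnnt1, slow troponin T, was at 1.31, 5.96, 12.5 and 2.04 CPM in patellar libraries, against 1.22, 589.9, 143 and 646 CPM in Achilles, 49.5 to 193 CPM in flexor and 261 to 982 CPM in supraspinatus libraries. Myl3, a slow myosin light chain, was at 1.7, 6.89, 8.25 and 2.46 CPM in patellar and 1.61, 615, 124 and 617 CPM in Achilles libraries. In both genes Achilles 1 lay as low as the patellar libraries, so that the groups overlapped although all 3 pairs were called lower. The slow and general markers summed to 559.5 to 16980 CPM of the library total in patellar libraries, against 622.0 to 12680 CPM in Achilles, 10190 to 37340 CPM in flexor and 69340 to 112700 CPM in supraspinatus libraries, and Myot was at 0 in every patellar library. Serinc2 (ENSRNOG00000012989), a serine incorporator, was at 9.31, 0.808, 1.32 and 1.69 CPM in the 4 patellar libraries, against 4.78, 5, 3.75 and 5.4 CPM in Achilles, 15.3, 10.7, 4.3 and 11.9 CPM in flexor and 82.6, 58.6, 63.6 and 85.6 CPM in supraspinatus libraries. Patellar 1, the library with more muscle RNA, was the only patellar one above the lowest Achilles library, and without it all patellar libraries lay below. With the muscle covariate Tnnt1, Myl3, Thbs4, Fmod, Serinc2, Bmpr1b, Cst3 and Notum did not pass. Tnnt1 and Myl3 are themselves among the markers that make up that covariate.

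Among the genes below were hairpin loci of microRNAs. MicroRNAs are short RNAs cut from hairpin precursors that repress messengers by pairing through a seed of 7 bases. Of 49 tested loci named Mir, 19 (38.8%) were lower and 2 higher than the mean of the others, against 21.1 and 21.6% of all genes, with a median log2 fold change of -0.78. Of them 6 lay below and 1 above all other libraries, as did 2.05 and 2.7% of all genes. Mir23b, Mir27b and Mir3074 are neighbours in RefSeq with Mir24-1, which lies on the other strand from Mir3074, and Mir24-2 is a second locus of the same mature microRNA as Mir24-1. These loci were chosen after their values were seen. The mature sequences, from RefSeq on GRCr8 and shown because the neighbouring loci moved together, carry their seeds (bases 2 to 8) in capitals.
miR-23b-3p: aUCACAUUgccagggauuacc
miR-27b-3p: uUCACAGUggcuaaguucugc
miR-24-3p: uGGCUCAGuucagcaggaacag
miR-3074: gAUAUCAGcucaguaggcaccg
The sequence of miR-23b-3p lies at chr17:1819405-1819425 and that of miR-27b-3p at chr17:1819163-1819183, both on the minus strand. That of miR-24-3p lies at chr17:1818672-1818693 on the minus strand within Mir24-1, and at chr19:40859481-40859502 on the minus strand within Mir24-2. That of miR-3074 lies at chr17:1818712-1818733 on the plus strand. The 4 seeds differ from each other, although those of miR-23b-3p and miR-27b-3p share the bases UCACA.

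Mir23b (ENSRNOG00000035467) had 44, 59, 49 and 26 counts in the patellar libraries, against 107 to 191 in Achilles, 182 to 307 in flexor and 100 to 229 counts in supraspinatus libraries. Mir27b (ENSRNOG00000035576) had 9, 3, 7 and 2 counts in the patellar libraries, against 23 to 126 in Achilles, 89 to 187 in flexor and 37 to 75 counts in supraspinatus libraries. Mir3074 (ENSRNOG00000035568) had 50, 55, 44 and 49 counts in the patellar libraries, against 111 to 236 in Achilles, 261 to 353 in flexor and 94 to 188 counts in supraspinatus libraries. In CPM none of the 3 overlapped between patellar and other libraries, and each was lower in all 3 pairs. The log2 fold changes against the mean of the others were -1.71 ± 0.26, adjusted p = 0.000147 for Mir23b, -3.55 ± 0.52, adjusted p = 0.000105 for Mir27b and -1.69 ± 0.18, adjusted p = 9.54e-06 for Mir3074.

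Mir24-2 (ENSRNOG00000035501), on another chromosome, was at 0.483 to 0.709 CPM in patellar libraries, against 0.802 to 2.7 CPM in the 12 others. It did not pass in the Achilles pair (adjusted p = 0.137), overlapped on library totals and lost its call with either covariate. Fancc (ENSRNOG00000016889), which neighbours the first 3 loci in RefSeq, was at 5.76 to 7.86 CPM in patellar libraries, against 4.19 to 8.88 CPM in the 12 others, and thus overlapped. Reads over a hairpin locus in such a library are not a measure of the mature microRNA, and no library held more than 353 counts at the first 3 loci. Because the strand setting is not given in the sources used here, reads of Mir3074 and of the hairpin on the other strand cannot be told apart.

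**Figure D5:**
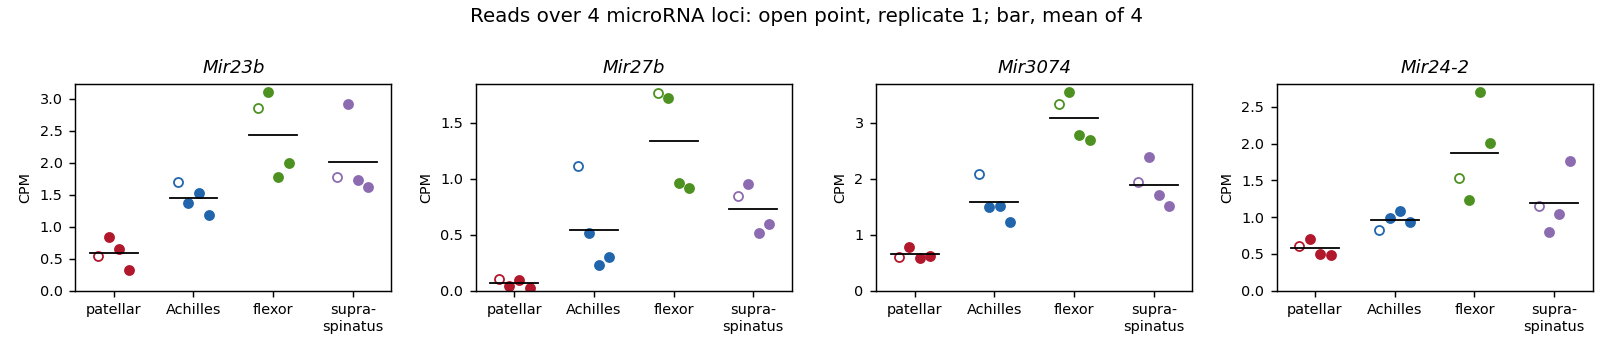
CPM over 4 microRNA loci (linear axis) in each of 16 libraries, grouped by tendon; points are libraries, the open point is replicate 1 and the bar is the mean of 4. Patellar points lie below all others at each locus, with Mir27b at 0.0254 to 0.109 CPM in patellar libraries.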

How the data were processed

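Total RNA was purified with a miRNeasy kit and DNase I and sequenced, per the labels' protocols. The deposited table holds the authors' raw counts per Ensembl gene, 1 column per library. The submitters' processing notes name HISAT2, FastQC, edgeR and the build rn6; no source used here gives the counter, the annotation or the strandedness. The authors' deposited edgeR table gives, per the file headers, log2 fold changes, a p-value and an adjusted p-value for each pair.

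Libraries were grouped by tendon. filterByExpr (minimum count 10, minimum total 15) left 16948 genes. edgeR 4.0.16 (R 4.3.3) fitted quasi-likelihood models to all 16 libraries, 1 mean per tendon, 12 residual degrees of freedom, at TMM scale, with Benjamini-Hochberg adjustment over all genes and a threshold of 0.05; gaps were taken on log2 CPM with a prior count of 2. The test was checked on simulated data. SEs, printed after ±, are the size of the fold over the square root of F and thus include the spread between libraries of a tendon. Floors of 3 counts cover counting error only. Alternatives were other scalings, DESeq2 1.42.0, limma-voom (limma 3.58.1), filters, a replicate block, 2 groups, muscle and adipocyte covariates and leaving out libraries. Each covariate was the mean log2 CPM of the muscle or adipocyte markers past the filter, so it takes up the differences of those markers. Reading each list's count without patellar 1 and without Achilles 1 was chosen after seeing the data.

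The separated genes and the 34 gene lists were chosen with earlier results of these data known. Genes were named by rule: 4 markers, then per direction the 12 largest gaps to the nearest other library at a mean of at least 1 CPM, list members that separated, up to 6 that separated without patellar 1, the 6 most abundant, and list members called in all 3 pairs. Of these only part are named, some are not reported here, and those named were picked after their values were seen, as were Arpc5, Mical1, Tnmd, Scx, Mkx, Col1a1, Fmod, Gdf5, Gdf6, Gdf15, the other HoxC genes, the microRNA loci and Fancc. Figures used Python 3.11.15, pandas 2.3.3 and matplotlib 3.10.9.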

Additional observations from a re-analysis of the deposited data

Results flagged for a closer look

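Levels of 86 named genes were examined in each tendon, 344 groups of 4 libraries, for a library far from the 3 others of its group, and 23 groups held one. Chance flags about 1 in 20 such groups. Achilles 1 held 6 of the 23 flags. It stood above the other Achilles libraries in the mast cell genes Cma1 (47.8 CPM), Cpa3 (50.8 CPM) and Fcer1a (4.27 CPM), in Ahsp (1.32 CPM), in Pmp22 (2635 CPM) and in Stra6 (1.68 CPM). For all of these genes but Stra6 it was the highest of the 12 other libraries.

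Patellar libraries stood apart in 6 groups. Patellar 1 was low in Hoxc9 (2.57 CPM) and high in Serinc2 (9.31 CPM) and Sox5 (13.3 CPM). Patellar 4 was high in Pappa2 (30.1 CPM), Penk (41.8 CPM) and Ms4a1 (1.17 CPM).

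Flexor 3 was high in Cd9 (2478 CPM), at 0 CPM in Hoxc9 and, through 1 count, at 0.00973 CPM in Hoxc11. Supraspinatus 4 was low in Hoxc6 (2.49 CPM) and Cd14 (112 CPM) and had 1 count of Hoxc11 (0.0162 CPM). Supraspinatus 3 was high in Ccl20 (0.335 CPM) and Tmsb4x (1431 CPM), supraspinatus 2 in Mir23b (2.92 CPM) and Ms4a1 (0.0382 CPM), and supraspinatus 1 was low in Ahsp (0.0613 CPM).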

How the results depend on the processing

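Over 27 settings the log2 fold changes of 82 named genes gave 2208 values, of which 2140 kept their direction and call, 66 kept the direction and lost the call and 2 changed sign: Hoxc11 at -1.40 with the 12 others as 1 group and Fmod at 0.36 with the adipocyte covariate. The main fit gave 3668 genes higher and 3580 lower than the others, with 178 and 135 list members. Counts of single lists under the next 3 settings are to be read beside the fall in these totals. With the 12 others as 1 group, 740 genes were higher and 831 lower than the others, and 28 list members higher and 44 lower. The spread between the 3 other tendons counts as error there. With the muscle covariate, patellar tendon gave 1422 higher and 1110 lower genes against the others, 5214 against flexor, 1898 against supraspinatus, 74 higher and 121 lower in all 3 pairs, and 113 and 43 list members. With the adipocyte covariate these were 1043 and 745, 2386, 3202, 76 and 63, and 82 and 32. Levels of its markers largely divide hindlimb from forelimb libraries, and what the calls lost with it rest on was not tested. On library totals 2299 genes were lower than the others, 152 lower in all 3 pairs and 171 below every other library. DESeq2 gave 1977 genes in the Achilles pair, and 438 higher and 493 lower in all 3 pairs. A gap of at least 1 on the log2 scale left 17 genes above and 9 below. Without patellar 1 and Achilles 1 together there were 1381 genes in the Achilles pair, 352 and 468 in all 3 pairs, and 1229 above and 1173 below.

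Without any 1 library the counts ran from 342 to 1415 in the Achilles pair, 67 to 318 higher and 116 to 394 lower in all 3 pairs, 460 to 875 above and 349 to 888 below. For these counts the cause was not tested. The replicate numbers were not taken as pairs, since in none of the 3 comparisons with patellar tendon did every same-numbered pair have deviations correlated over 0.1. Of all 24 same-numbered pairs 10 did (range -0.32 to 0.528, median 0.04), among them all 4 of flexor with supraspinatus tendon (0.107 to 0.38). With the replicate block 3576 genes were higher and 3677 lower than the others, 836 differed in the Achilles pair, and 198 and 246 were called in all 3 pairs. Depth limits Hoxc11, Akr1c3 and Notum, whose low side held few counts, and changes in them are not sized against those tendons. It also limits folds that are given for other genes with few counts on the low side. Among these are Ccl20, with 1 to 7 counts in flexor libraries, and in patellar libraries Mir27b, with 2 to 9 counts, and Six2, with 4 to 18 counts.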

Other observations

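Most abundant among the genes above all others was AABR07015081.2, which with 3 other features of the table (AABR07015042.1, AABR07015079.1 and Olr752, an olfactory receptor by name) took 2.04 to 2.61% of the TMM-scaled reads in patellar libraries. The share was 0.435 to 1.16% in Achilles, 0.46 to 0.627% in flexor and 0.515 to 1.19% in supraspinatus libraries. Olr752 made up 0.237 to 0.269% of that sum in patellar libraries and 0.213 to 0.264% in the others. Whether these reads belong to 1 transcript was not tested.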
